A study of Mus musculus with 4 samples.

Results

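The genes described here encode the constitutive subunits of the proteasome, measured in Rap1a knockout mouse microvascular smooth muscle cells transduced with a shuttle vector named RapCA in the labels or with the empty shuttle vector. They were taken as the non-control probes whose accession maps to a mouse symbol made of Psma, Psmb, Psmc or Psmd and a number, without the interferon-inducible Psmb8, Psmb9 and Psmb10. This gave 47 probes for 36 genes, out of 41174 non-control probes and 18217 genes with a symbol. Of these, 45 probes for 35 genes were bright enough to be tested. The core particle had 16 probes for 14 genes, the regulatory particle 24 probes for 17 genes, and 3 further genes with 4 probes encode chaperones that help assemble the regulatory particle. The remaining 2 genes, Psma8 and Psmb11 with 3 probes, encode core subunits known mainly from testis and thymus.

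Cells labelled RapCA and cells labelled vector both lacked Rap1a per the labels, both came from male C57BL6 mice, and both were transduced overnight without serum when plated. Growth medium held 10% serum, and the recovery of 48 h was in 0.5% serum. The labels do not spell out RapCA, and the series title describes a knockout set against a rescue. Each of 4 two-colour arrays held RapCA RNA in the Cy3 channel and vector RNA in the Cy5 channel, so the condition cannot be told apart from the dye. Biological replication is stated without separate cultures or animals being named, so the p-values measure only the spread between these 4 arrays.

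The proteasome degrades proteins that carry ubiquitin chains. Its core particle is a barrel in which outer rings of alpha subunits, encoded by Psma genes, control entry and inner rings of beta subunits, encoded by Psmb genes, hold the cutting sites. The regulatory particle has a base, with the Psmc ATPases that unfold substrates, and a lid of Psmd subunits, one of which removes the ubiquitin chain. In cells exposed to interferon, Psmb8, Psmb9 and Psmb10 replace the constitutive cutting subunits Psmb5, Psmb6 and Psmb7.

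The Rap1a probe had a log2 ratio of RapCA over vector of -1.07 ± 0.44 (SD, n = 4; limma adjusted p = 0.00204), and both its channels were well above background. This is at odds with the labelled conditions, and checks nothing if the probe is outside the deletion. All directions therefore follow the dye labels, and each channel is called as labelled. The slide was shared by all arrays. Replicate 1 stood apart: over all tested probes its correlation with replicates 2 to 4 was 0.69 to 0.78, against 0.93 to 0.98 among these, and its Cy5 channel had 51.6% of spots well above background against 60.3% to 62.1% on the others. Among smooth muscle markers 7 of 9 were tested and 4 of them were higher in the RapCA channel, while Des and Myocd were not well above background in either channel. The summed signal of these markers was 311898 to 341811 in the RapCA channel and 144174 to 187487 in the vector channel. Fibroblast markers (4 of 5 tested, 3 higher) summed to 310565 to 381069 in the RapCA channel and 54023 to 87761 in the vector channel. Lum was not well above background. That sum rested mostly on Col1a1, with a mean log2 signal of 18.23 in the RapCA channel against 14.68 for Dpt, the next brightest. Pericyte markers (3 of 5 tested, 2 higher and 1 lower) summed to 26976 to 30680 in the RapCA channel and 8977 to 12691 in the vector channel. Rgs5 and Abcc9 were not well above background. Endothelial markers (3 of 6 tested, 2 lower and 1 higher) summed to 444 to 454 in the RapCA channel and 662 to 832 in the vector channel, with Pecam1 and Cdh5 not well above background. Leukocyte markers (3 of 6 tested, none called by limma and none at an unadjusted p under 0.05) summed to 582 to 756 in the RapCA channel and 506 to 846 in the vector channel, with Ptprc and Adgre1 not well above background. Of the epithelial markers 1 of 4 was tested: Krt8 was called lower, with 75.3 to 82.6 in the RapCA channel, not well above background there, and 152 to 169 in the vector channel, and Epcam and Cdh1 were not well above background. The part of these markers in the results below was not tested.

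After loess normalization of all 4 arrays, the mean ratio of every tested constitutive proteasome probe was less than 2-fold between the channels. Of the 45 probes tested, 14 were lower and 1 was higher in the RapCA channel at a limma adjusted p under 0.05, so 33.3% were called against 49.6% of all 23497 probes. In the single directions, 31.1% of these probes were lower against 23.2% of all probes, and 2.22% were higher against 26.4% of all probes. With each array centred on its median instead, 6 members passed 2-fold, all lower, from -1.02 (Psmd3) to -1.49 (Psmb3), and 4 of them were called. The 4 were Psmb3, Psmb4, Psmd3 and Psmd5, and the other 2 were Psma1 and Psmc6. Of all probes 27.9% were called with that centring, at any size and in either direction, which is not a share at 2-fold. Without replicate 1, Psmc6 passed 2-fold at -1.04 and 30 of the 45 probes were called, beside 67% of all probes. After loess on all 4 arrays, among all probes 13.2% lay at or beyond that size, and 5.83% were called at least 2-fold lower and 7.33% at least 2-fold higher. The mean log2 ratios of the members ran from -0.85 (Psmd5, and also the lower of 2 Psmb3 probes) to 0.47 (Psmb1), a range that held 71.0% of all tested probes, and their median was -0.12 against 0.014 over all probes. Among the 30 probes that were not called, the lowest bound of a 95% interval was -0.88 (Psmd14, probe A_52_P652212) and the highest 0.75 (Psmd9, probe A_52_P469512), and most intervals were narrower. Among called probes the interval reached beyond 2-fold lower for Psmc6 (-1.31), Psmb3 probe A_52_P9437 (-1.16), Psmd5 (-1.14) and Psma1 (-1.05). In bulk RNA, fewer cells with a transcript and less of it per cell cannot be told apart.

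**Figure D1:**
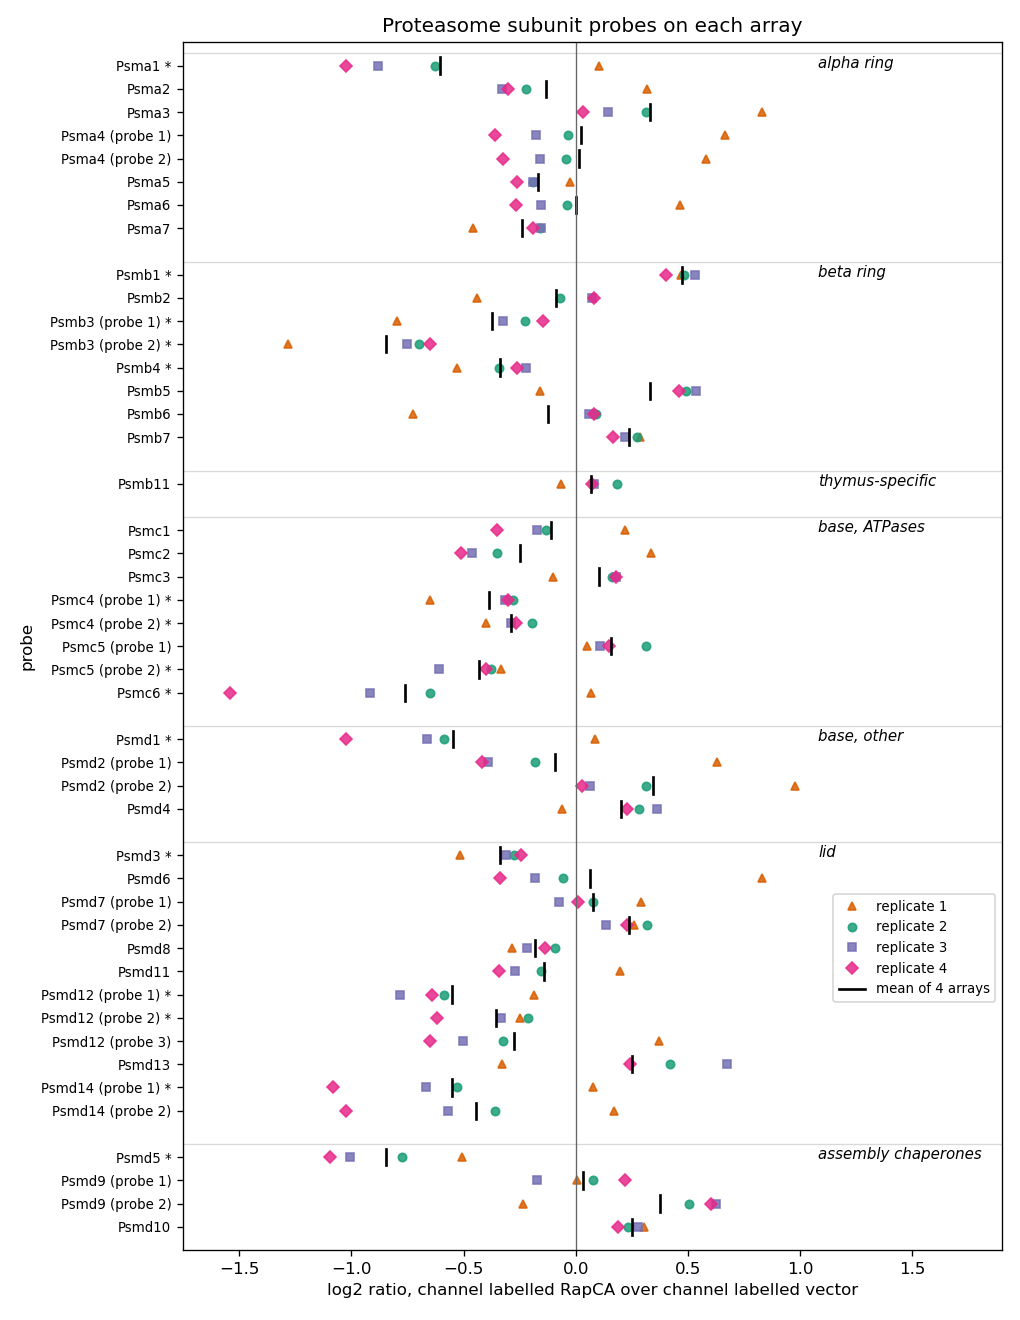
Log2 ratio of the RapCA channel over the vector channel (x axis) for the 45 tested probes (y axis, grouped by their place in the proteasome), with a marker for each of 4 arrays, a bar for the mean, and an asterisk on probes called by limma. Means lie between -0.85 and 0.47, and replicate 1 is often apart from the other 3 arrays.

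In the core particle, 4 of 16 probes were lower in the RapCA channel, 1 was higher and 11 were not called, with a median log2 ratio of -0.11. The alpha ring had 1 call among 8 probes, beside 49.6% of all probes called. Psma1, an alpha ring subunit, had a log2 signal of 14.01, 14.24, 14.02 and 13.85 in the RapCA channel of replicates 1 to 4, against 13.91, 14.87, 14.90 and 14.88 in the vector channel. The RapCA signal was the lower one on replicates 2 to 4 and slightly the higher one on replicate 1. The log2 ratio of Psma1 was -0.61 ± 0.50 (SD, n = 4; limma adjusted p = 0.0311), a fold of 0.657.

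The other alpha ring genes were not called. Their mean log2 ratios ran from -0.24 for Psma7 to 0.33 for Psma3, with Psma2 at -0.13 and Psma5 at -0.17 between them. Both Psma4 probes lay close to 0, at 0.024 and 0.013. Psma6 had the smallest mean ratio of the ring at 0.0021, made of 0.47, -0.037, -0.16 and -0.26 on replicates 1 to 4, and its 95% interval of -0.33 to 0.33 is the bound on its change. Replicate 1 gave the highest ratio for 7 of the 8 alpha ring probes and the lowest for 1.

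The beta ring had 3 of 8 probes lower, 1 higher and 4 not called, so its share of calls was close to the 49.6% of all probes. Of all probes 23.2% were lower and 26.4% higher. Psmb3, a non-catalytic beta subunit, was measured by 2 probes. Probe A_52_P9437 had a log2 signal of 15.23, 15.28, 15.31 and 15.38 in the RapCA channel of replicates 1 to 4, against 16.52, 15.98, 16.06 and 16.03 in the vector channel. The channels did not overlap, and the vector signal on replicate 1 was the highest. The log2 ratio of this Psmb3 probe was -0.85 ± 0.30 (limma adjusted p = 0.00188), and that of its second probe, A_51_P209193, was -0.37 ± 0.29 (limma adjusted p = 0.0498), a call kept under 5 of 15 alternative settings.

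Psmb4, another non-catalytic beta subunit, was lower at -0.34 ± 0.14 (limma adjusted p = 0.0288), with ratios of -0.53, -0.34, -0.22 and -0.26 on replicates 1 to 4. Psmb1, also non-catalytic, was the only member called higher. Its log2 signal was 14.95, 14.91, 15.02 and 14.90 in the RapCA channel, against 14.47, 14.42, 14.49 and 14.50 in the vector channel, so the channels did not overlap on any array. The log2 ratio of Psmb1 was 0.47 ± 0.05 (limma adjusted p = 0.00527), a fold of 1.39, but with each array centred on its median in place of the intensity-dependent loess fit it was -0.057 (adjusted p = 0.794). Psmb2 had the smallest mean ratio of the beta ring, at -0.090 ± 0.24 with -0.44, -0.071, 0.072 and 0.082 on replicates 1 to 4, and was not called.

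The 3 catalytic subunits of the constitutive core were not called after loess. Psmb5, which carries the chymotrypsin-like site, had log2 ratios of -0.16, 0.49, 0.54 and 0.46 on replicates 1 to 4. Psmb6, which carries the caspase-like site, had -0.73, 0.091, 0.059 and 0.080. Psmb7, which carries the trypsin-like site, had 0.29, 0.27, 0.22 and 0.16. Psmb5 and Psmb6 thus differed in sign between replicate 1 and the other arrays, and Psmb7 was above 0 on all 4. The limma adjusted p was 0.0892 for Psmb5, 0.552 for Psmb6 and 0.0737 for Psmb7, and without replicate 1 it was 0.000947 for Psmb5, 0.360 for Psmb6 and 0.0319 for Psmb7. With each array centred on its median, the mean ratios were -0.25 for Psmb5, -0.70 for Psmb6 and -0.19 for Psmb7. Psmb5 and Psmb6 were then below 0 on all 4 arrays, and Psmb6 was called lower (limma adjusted p = 0.0157). Across the beta ring replicate 1 gave the lowest ratio for 6 of 8 probes and the highest for 1, the opposite of the alpha ring. RefSeq names pseudogenes of Psma5, Psmb5, Psmb6 and Psmb7, and without the probe sequences their signal cannot be told from that of the gene.

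**Figure D2:**
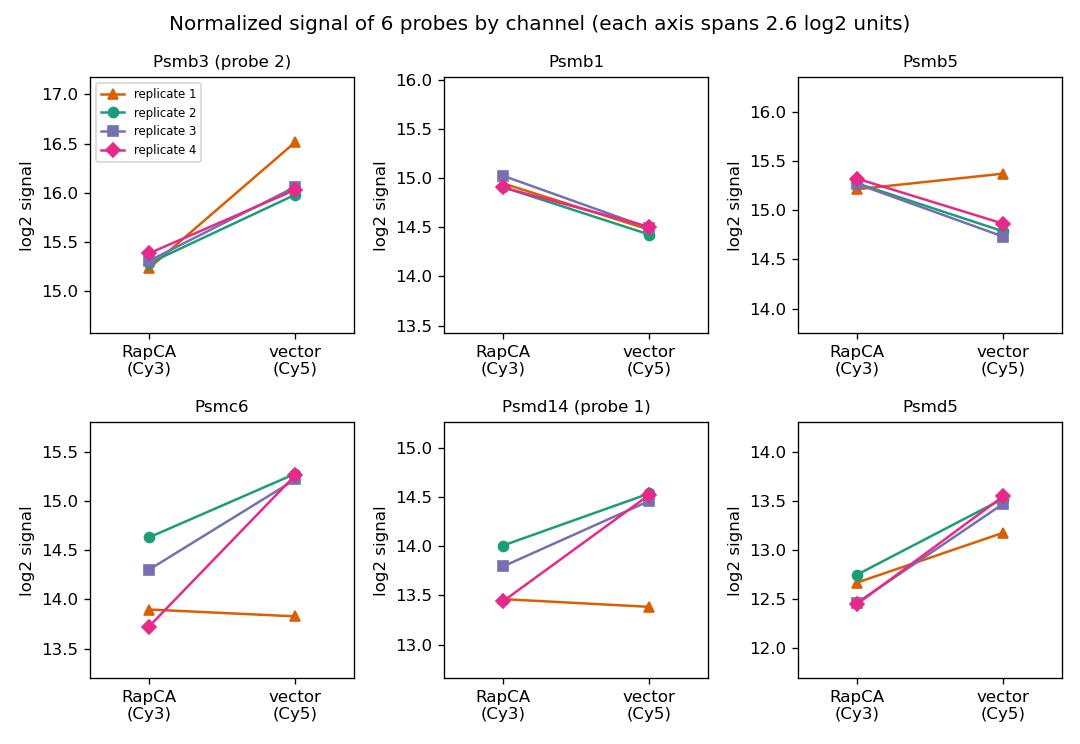
Log2 signal after loess and scaling between arrays (y axis, each panel spanning an equal range) of 6 probes in the RapCA channel (left) and the vector channel (right), with a line joining both channels of an array. Psmb3 and Psmd5 are lower and Psmb1 higher in the RapCA channel on all 4 arrays, whereas the vector signal of Psmc6 and Psmd14 on replicate 1 lies well below that of the other arrays.

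Promoters of members were read from a RefSeq table (GRCm38.p6) that holds 250 bases before to 50 bases after each gene's start, and 29 of the 36 genes had 31 such windows. The windows below belong to Psmb5 and Psmb6, catalytic subunits whose windows hold the letters of the antioxidant response element bound by Nfe2l1 and Nfe2l2, and to Psmb3 and Psmd14, which are among the members that were lower. Capitals mark TGACNNNGC, the strict core of that element, and CCAAT, the box bound by NF-Y, on either strand.

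Psmb5 (chr14:54617946-54618245, minus strand): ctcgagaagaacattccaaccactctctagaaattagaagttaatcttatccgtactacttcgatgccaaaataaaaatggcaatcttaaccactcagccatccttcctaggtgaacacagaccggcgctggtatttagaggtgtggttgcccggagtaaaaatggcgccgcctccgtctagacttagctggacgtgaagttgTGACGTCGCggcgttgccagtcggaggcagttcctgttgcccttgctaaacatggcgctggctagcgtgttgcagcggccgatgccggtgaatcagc
Psmb6 (chr11:70525107-70525406, plus strand): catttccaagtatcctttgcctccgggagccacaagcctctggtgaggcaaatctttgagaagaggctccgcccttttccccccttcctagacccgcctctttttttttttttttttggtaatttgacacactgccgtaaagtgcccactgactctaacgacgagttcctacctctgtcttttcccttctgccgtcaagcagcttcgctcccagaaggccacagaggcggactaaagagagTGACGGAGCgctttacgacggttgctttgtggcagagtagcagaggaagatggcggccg
Psmb3 (chr11:97703184-97703483, plus strand): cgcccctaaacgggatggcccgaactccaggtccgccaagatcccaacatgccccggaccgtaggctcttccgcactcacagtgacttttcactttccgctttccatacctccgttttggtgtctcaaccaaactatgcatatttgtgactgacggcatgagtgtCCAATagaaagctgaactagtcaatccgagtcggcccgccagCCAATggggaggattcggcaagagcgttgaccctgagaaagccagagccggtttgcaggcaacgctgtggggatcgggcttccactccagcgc
Psmd14 (chr2:61711444-61711743, plus strand): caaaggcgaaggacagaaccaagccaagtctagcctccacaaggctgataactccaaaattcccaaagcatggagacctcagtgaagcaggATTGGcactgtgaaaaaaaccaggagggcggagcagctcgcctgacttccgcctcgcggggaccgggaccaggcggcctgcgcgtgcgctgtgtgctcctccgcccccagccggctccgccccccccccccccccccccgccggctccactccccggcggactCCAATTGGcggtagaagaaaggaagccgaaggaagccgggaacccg

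The strict core TGACNNNGC occurred in the windows of 5 of the 29 member genes (Psmb5, Psmb6, Psmc6, Psmd9 and Psmd12), or 17.2%, against 14.0% of all genes with windows. The loose core TGANNNNGC, which contains every strict match, occurred in 17 member genes, or 58.6%, against 45.0% of all genes. CCAAT occurred in 12 member genes, or 41.4%, against 41.1% of all genes, and at the start of Psmd14 matches on both strands overlap. These shares describe letters in the windows only. The 5 genes with the strict core included Psmb5, Psmb6 and Psmd9, which were not called after loess, and Psmc6 and Psmd12, which had probes called lower. Among genes with a window and a probe called lower, Psma1, Psmb3 and Psmd14 held CCAAT. Psmb4, Psmc4, Psmc5, Psmc6, Psmd1, Psmd5 and Psmd12 did not, so the printed Psmb3 and Psmd14 windows do not stand for the lower members.

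In the regulatory particle, 9 of 24 probes were lower in the RapCA channel, none was higher and 15 were not called, with a median log2 ratio of -0.22. At an unadjusted p under 0.05, 11 of the 24 passed. Of all probes at least 49.6% passed it as well, since that share passed the stricter adjusted threshold. The base had 5 probes lower among 12, of which 4 were among its 8 ATPase probes, and the lid had 4 lower among 12. The medians of base and lid were -0.18 and -0.23.

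Psmc6, a base ATPase, had the largest mean difference of the regulatory particle. Its log2 signal was 13.90, 14.63, 14.30 and 13.72 in the RapCA channel, against 13.83, 15.28, 15.22 and 15.26 in the vector channel. The RapCA signal was the lower one on replicates 2 to 4 and not on replicate 1, where the vector signal was well below that of the other arrays. The log2 ratio of Psmc6 was -0.76 ± 0.67 (limma adjusted p = 0.0316) over 4 arrays and -1.04 ± 0.46 (SD, n = 3; limma adjusted p = 0.00156) without replicate 1.

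Psmc4, another base ATPase, was lower by both of its probes, at -0.39 ± 0.18 (limma adjusted p = 0.0219) and -0.29 ± 0.09 (limma adjusted p = 0.0417), with every array below 0. Psmc5 was measured by 2 probes that did not give the same answer. Probe A_52_P657435 had ratios of -0.33, -0.38, -0.61 and -0.40 and was lower at -0.43 ± 0.12 (limma adjusted p = 0.0104). Probe A_51_P232355 had 0.051, 0.31, 0.11 and 0.15 and was not called (limma adjusted p = 0.233), so a change of Psmc5 is uncertain. Psmc1 at -0.11, Psmc2 at -0.25 and Psmc3 at 0.11 were not called.

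Psmd1, a large scaffold subunit of the base, had a log2 signal of 11.71, 12.52, 12.31 and 11.90 in the RapCA channel, against 11.62, 13.11, 12.97 and 12.92 in the vector channel. As with Psmc6, the RapCA signal was the lower one on every array but replicate 1. The log2 ratio of Psmd1 was -0.55 ± 0.46 (limma adjusted p = 0.0360). Psmd2, the other scaffold, had one probe with ratios of 0.63, -0.18, -0.39 and -0.42 and a mean of -0.091, the smallest in size of the base, and another with 0.98, 0.31, 0.063 and 0.026 and a mean of 0.34. Neither Psmd2 probe was called, and their signs differed. Psmd4, a ubiquitin receptor of the base, stood at 0.20 ± 0.19 and was not called (limma adjusted p = 0.168).

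In the lid, Psmd14, the enzyme that removes the ubiquitin chain, had a log2 signal of 13.46, 14.01, 13.79 and 13.44 in the RapCA channel, against 13.38, 14.54, 14.46 and 14.52 in the vector channel by probe A_51_P143737. The RapCA signal was the lower one on replicates 2 to 4, while on replicate 1 the vector signal was at its lowest and the RapCA signal slightly above it. This Psmd14 probe was lower at -0.55 ± 0.48 (limma adjusted p = 0.0393), a call kept under 7 of 15 alternative settings. The second Psmd14 probe, A_52_P652212, had 0.17, -0.36, -0.57 and -1.02 and was not called at -0.45 ± 0.50 (limma adjusted p = 0.0842). Psmd12, a structural lid subunit, was measured by 3 probes. A_51_P500577 had ratios of -0.19, -0.59, -0.79 and -0.64 and a mean of -0.55 ± 0.26 (limma adjusted p = 0.00901), and A_52_P134381 had -0.25, -0.21, -0.33 and -0.62 and a mean of -0.35 ± 0.18 (limma adjusted p = 0.0322). The third Psmd12 probe, A_52_P574190, had 0.37, -0.32, -0.50 and -0.65 and was not called (limma adjusted p = 0.225).

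Psmd3, another structural lid subunit, was lower at -0.34 ± 0.12 (limma adjusted p = 0.0275) with -0.52, -0.27, -0.31 and -0.25 on the arrays. The remaining lid genes were not called. Psmd6 had the smallest mean ratio of the lid, at 0.064 ± 0.52, with 0.83 on replicate 1 and -0.058, -0.18 and -0.34 on the others. Psmd8 stood at -0.18, Psmd11 at -0.14, Psmd13 at 0.25 and the 2 Psmd7 probes at 0.076 and 0.24.

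The assembly chaperones did not move together. Psmd5, which binds the ATPase Psmc2 during assembly, had a log2 signal of 12.67, 12.75, 12.46 and 12.45 in the RapCA channel, against 13.18, 13.52, 13.47 and 13.55 in the vector channel. The channels did not overlap, and the difference was smallest on replicate 1. The log2 ratio of Psmd5 was -0.85 ± 0.26 (limma adjusted p = 0.00146), a fold of 0.556. Psmd9 was not called by either probe, at 0.031 ± 0.16 (0.0040, 0.075, -0.17 and 0.22) and 0.37 ± 0.41 (-0.24, 0.51, 0.62 and 0.60). Psmd10, also known as gankyrin, had 0.31, 0.23, 0.28 and 0.19 and was not called at 0.25 ± 0.05 (limma adjusted p = 0.0599).

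Of the tissue-specific core genes, 1 Psmb11 probe passed the background test on every array in each channel and was not called at 0.067 ± 0.10 (limma adjusted p = 0.603). The second Psmb11 probe and the Psma8 probe were not well above background in either channel on any array and were not tested.

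Core and regulatory particle were set side by side by the median ratio on each array. The median over the 16 core probes was 0.041, -0.057, -0.16 and -0.23 on replicates 1 to 4, and that over the 24 regulatory probes was 0.074, -0.19, -0.30 and -0.34. The core median minus the regulatory median was -0.034, 0.13, 0.14 and 0.12, a mean of 0.089 ± 0.083 (SD, n = 4). The difference was above 0 on 3 arrays and below 0 on replicate 1, and was of the size of its spread between arrays. The share of probes called was 5 of 16 in the core and 9 of 24 in the regulatory particle, both under the 49.6% of all probes. In 1 direction, 4 of 16 core probes and 9 of 24 regulatory probes were lower against 23.2% of all probes. With each array centred on its median, the core median was -0.60 and the regulatory median -0.65, where that of all probes moved by -0.16, so the size of the shift of both particles rests on the normalization. With that centring 12 member probes were called, all lower, beside 27.9% of all probes called (16.7% lower and 11.2% higher). In the core they were Psma5, Psma7, both Psmb3 probes, Psmb4 and Psmb6. In the regulatory particle they were both Psmc4 probes, Psmc5 probe A_52_P657435, Psmd3 and Psmd8, and the remaining one was the chaperone Psmd5. The larger share was then in the core, where after loess it was in the regulatory particle. Psma1, Psmb1, Psmc6, Psmd1, the Psmd12 probes called after loess and Psmd14 probe A_51_P143737 were not called with that centring. Except for Psmb1, their mean ratios were then larger in size than after loess.

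**Figure D3:**
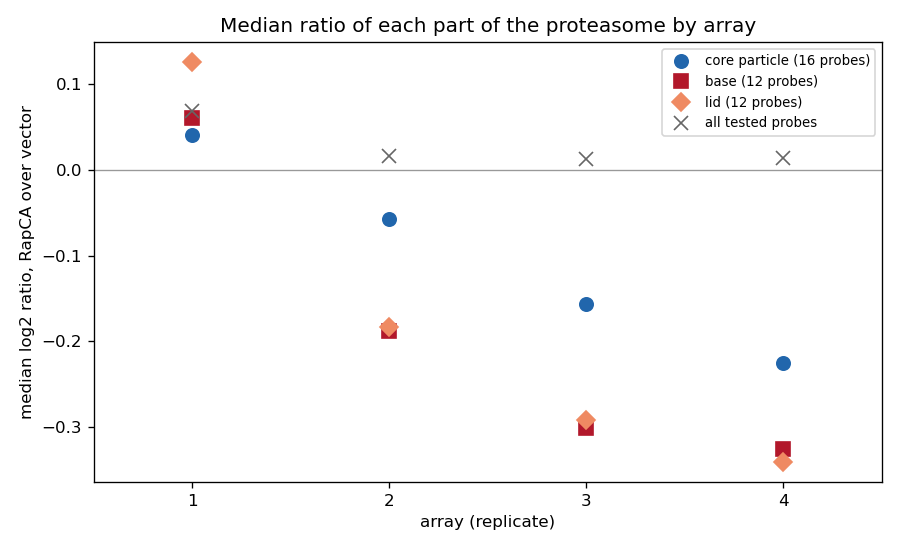
Median log2 ratio of RapCA over vector (y axis) on each array (x axis) for the core particle, the base, the lid and all tested probes. Base and lid lie below the core on replicates 2 to 4 and at or above it on replicate 1, where the regulatory median is 0.074 and the core median 0.041.

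**Figure D4:**
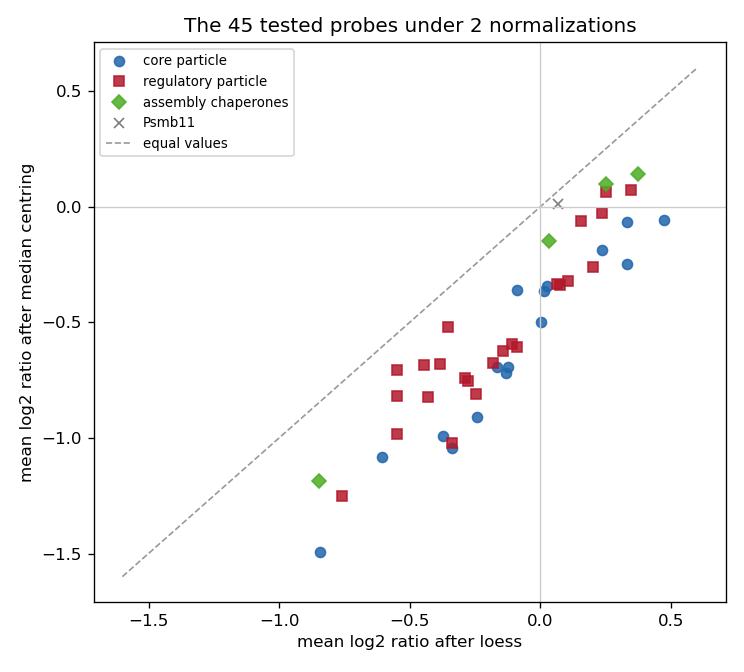
Mean log2 ratio of the 45 tested probes after loess (x axis) and after centring each array on its median (y axis), with a dashed line where both are equal. All points lie below the line, and the core median is -0.60 and the regulatory median -0.65 after centring, against -0.11 and -0.22 after loess.

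The members' values rest strongly on which arrays were used. Over the 45 probes, ratios of replicate 1 correlated with those of replicates 2, 3 and 4 at 0.31, 0.16 and 0.037, against 0.91 to 0.96 among the other 3 arrays, where the points of an array share 1 hybridisation. Replicate 1 gave the highest ratio of the 4 arrays for 24 member probes and the lowest for 17. Among all probes these shares were 43.6% and 39.4%. Without replicate 1, 22 member probes were lower and 8 higher, where 67% of all probes were called (32.6% lower and 34.4% higher). The 8 that were then higher were Psmb1, Psmb5, Psmb7, Psmd4, Psmd13, 1 of the 2 Psmd7 probes, 1 of the 2 Psmd9 probes and Psmd10. Without replicate 2, 3 member probes were called beside 34% of all probes (15.4% lower and 18.6% higher). Without replicate 3, 2 were called beside 33.7% (15% lower and 18.7% higher), and without replicate 4, 5 were called beside 39.4% (17.6% lower and 21.7% higher). With arrays weighted by their quality, 35 were called beside 76.4% (37.3% lower and 39.1% higher). Psmd5 and Psmb3 probe A_52_P9437 were called lower with any array left out. The sign of most of the 8 probes that were higher without replicate 1 rested on the loess fit. With each array centred on its median, Psmb1, Psmb5, Psmb7, Psmd4, Psmd10 and that Psmd7 probe lay below 0 on each of replicates 2 to 4. That Psmd9 probe stayed above 0 there, and Psmd13 was below 0 on replicate 4 only (-0.15).

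Of the interferon-inducible catalytic subunits, Psmb8 and Psmb9 were lower in the RapCA channel and Psmb10 was not called. Psmb8, the counterpart of Psmb5, had log2 ratios of -3.60, -2.78, -2.82 and -2.68 and was lower at -2.97 ± 0.42 (limma adjusted p = 3.46e-05). Psmb9, the counterpart of Psmb6, had -3.54, -2.59, -2.63 and -2.62 and was lower at -2.85 ± 0.47 (limma adjusted p = 4.75e-05). Psmb10, the counterpart of Psmb7, had -0.85, -0.18, 0.025 and -0.025 and was not called (limma adjusted p = 0.221). The ratio of Psmb5 exceeded that of Psmb8 by 3.30 ± 0.13 log2 units, that of Psmb6 exceeded that of Psmb9 by 2.72 ± 0.06, and that of Psmb7 exceeded that of Psmb10 by 0.49 ± 0.45 (SD, n = 4 each). All 3 differences were above 0 on every array, and each had an exact two-sided sign-permutation p of 0.125 (also 0.125 adjusted over the 3 pairs), the smallest that 4 arrays allow. The activator genes Psme1 and Psme2, also inducible by interferon, did not follow Psmb8 and Psmb9. Psme1 stood at 0.15 ± 0.18 (limma adjusted p = 0.302), and Psme2 was higher by both probes, at 0.31 ± 0.17 (limma adjusted p = 0.0463) and 0.48 ± 0.14 (limma adjusted p = 0.00701). Both Psme2 calls were lost with median centring, where the ratios were -0.20 and 0.077.

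**Figure D5:**
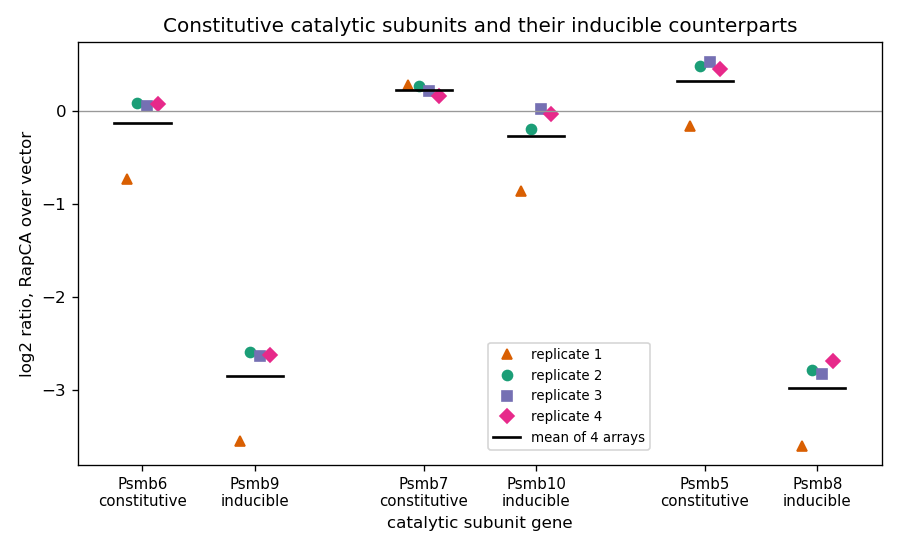
Log2 ratio of RapCA over vector (y axis) for the constitutive catalytic subunits, each left of its inducible counterpart (x axis), with a marker for each of 4 arrays and a bar for the mean. Psmb8 and Psmb9 lie near -2.97 and -2.85, while Psmb5, Psmb6, Psmb7 and Psmb10 lie within 1 log2 unit of 0 on all arrays.

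Other genes of the pathway were read from the brightest probe of each gene, beside 24.9% of all genes lower and 28.9% higher. None of the 5 core assembly genes (Psmg1, Psmg2, Psmg3, Psmg4 and Pomp) was called by limma after loess, and none passed at an unadjusted p under 0.05. Psmg4 had the smallest adjusted p, 0.0949, at -0.32 ± 0.31. With median centring 3 of these genes passed at an unadjusted p under 0.05, beside at least 27.9% of all probes. Without replicate 1, 2 of them passed, beside at least 67% of all probes. None of the alternative activators and the inhibitor (Psme3, Psme4 and Psmf1) was called, with 1 at an unadjusted p under 0.05, but other probes of the same genes were. For Psme4, an activator that binds the core, the brightest probe gave -0.67 ± 0.67 (limma adjusted p = 0.0502), and the other probes were lower at -0.92 ± 0.55 (limma adjusted p = 0.00818) and -0.63 ± 0.61 (limma adjusted p = 0.0459). For the inhibitor gene Psmf1 the brightest probe gave -0.073 ± 0.31, and the other probes were higher at 0.33 ± 0.07 and 0.30 ± 0.11 (limma adjusted p = 0.0256 and 0.0378).

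Genes for proteins that bind the proteasome and handle ubiquitin had 6 of 12 lower and 1 higher. Uchl5, a deubiquitinase of the base, was lower at -1.47 ± 0.45 (limma adjusted p = 0.000525), with -0.90, -1.37, -1.64 and -1.97 on the arrays. Usp14, the other deubiquitinase of the base, was lower at -0.76 ± 0.28 by its brightest probe (limma adjusted p = 0.00673). This rests on 3 arrays without replicate 1, on which its spot was marked as an outlier. Its 2 other probes were above 0 on replicate 1 (0.38 and 0.20). Over all 4 arrays they were not called (limma adjusted p = 0.228 and 0.0529). Ubqln1, a shuttle that brings ubiquitinated proteins, was lower at -0.58 ± 0.26 by its brightest probe (limma adjusted p = 0.00728). Another Ubqln1 probe was higher at 0.80 ± 0.27 (limma adjusted p = 0.00192). Adrm1, also counted as lower, had another probe called higher at 0.50 ± 0.22 (limma adjusted p = 0.0106). Rad23b, not called by its brightest probe, had another probe called lower at -0.61 ± 0.40 (limma adjusted p = 0.0169).

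Among ubiquitin genes and ubiquitin-activating enzymes 2 of 6 were lower and none higher. Rps27a, in which ubiquitin is fused to a ribosomal protein, was lower at -1.14 ± 0.39 (limma adjusted p = 0.00100). The polyubiquitin gene Ubb stood at -0.16 ± 0.16 and Uba1, the main activating enzyme, at 0.19 ± 0.04, and neither was called. Of Vcp and its cofactors, which extract ubiquitinated proteins, 2 of 6 were higher and 2 lower. Faf2 and Nsfl1c were higher at 0.92 ± 0.17 and 0.43 ± 0.19, Faf1 and Nploc4 were lower at -0.63 ± 0.18 and -0.33 ± 0.06, and all 4 calls were lost with median centring. The ratios were then 0.70 for Faf2, 0.019 for Nsfl1c, -0.91 for Faf1 and -0.57 for Nploc4, so those of the 2 lower genes were larger in size while their adjusted p-values were 0.0508 and 0.0960.

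Genes that control proteasome transcription had 4 of 11 higher and 2 lower. Nfe2l1, the factor that raises proteasome genes when the proteasome is impaired, was higher at 1.11 ± 0.19 (limma adjusted p = 0.000268), with 1.29, 0.89, 1.02 and 1.25 on the arrays, and 0.67 with an adjusted p of 0.0709 with median centring. Stat3, a cytokine-activated factor, was higher at 1.30 ± 0.05 (limma adjusted p = 7.57e-05). Mafg, a small partner of Nfe2l1, was higher at 0.47 ± 0.05 (limma adjusted p = 0.00526), a call lost with median centring (0.19). Nfyb, a subunit of NF-Y, was lower at -0.91 ± 0.29 (limma adjusted p = 0.00128).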

How the data were processed

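Total RNA was labelled with Cy5 (vector) or Cy3 (RapCA) and hybridised to 4 Agilent arrays, per the labels. Agilent Feature Extraction is named in version 10.9 by the submitters' processing notes and in version 10.7.3.1 by the files. The intensity values deposited are median pixel brightness of spot and background, not normalized, per the file headers. The log10 ratios deposited in the scanner files and the series table were normalized by that software, per the file headers.

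Here, normexp (offset 50) and loess within arrays were applied, 94 to 137 outlier spots per array were dropped, and replicate spots of each probe were averaged. No spot was saturated. Ratios are log2 of Cy3 over Cy5, and levels are log2 signals after loess and Aquantile scaling. Probes that passed the scanner's background test on all 4 arrays in either channel and were measured on at least 3 were tested (23497) with limma's lmFit and eBayes, with Benjamini-Hochberg adjustment over all of them. The number of arrays limits the precision. RefSeq symbols were found for 64.8% of probes by accession. The symbol had to end with its number, which leaves out Psmc3ip, not a subunit. Per-array values are given for the largest calls, the smallest ratio and any opposite call of each part, for genes whose probes disagree, and, outside that rule, for other called or catalytic subunits and other members chosen after values were seen. Of pathway lists, up to 4 genes with the smallest p are named, and some others; a few list genes are not reported here. Members and lists were chosen with earlier results of these data known. The fit was tested on simulated data. R 4.3.3, limma 3.58.1, Python 3.11.15, pandas 2.3.3 and matplotlib 3.10.9 were used.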

Additional observations from a re-analysis of the deposited data

Results flagged for a closer look

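Of 94 probes of the proteasome and its pathway, 18 had 1 array far from the other 3 by Dixon's criterion, which chance gives in about 1 of 20 groups. In 17 of the 18 that array was replicate 1. Among members, the log2 ratio on replicate 1 was above the others for Psma2 (0.32, against -0.33 to -0.22). It was below the others for Psma7 (-0.46, against -0.19 to -0.16), Psmb3 probe A_52_P9437 (-1.28, against -0.75 to -0.65), Psmb5 (-0.16, against 0.46 to 0.54), Psmb6 (-0.73, against 0.059 to 0.091), Psmc3 (-0.10, against 0.16 to 0.18), 1 Psmc4 probe (-0.65, against -0.31 to -0.28) and 1 Psmd9 probe (-0.24, against 0.51 to 0.62). In the wider pathway, replicate 1 was above the others for Rad23b (0.19), Ubqln2 (0.78), Vcp (0.87), Ngly1 (1.27), Uba1 (0.24) and Faf1 (-0.35), and below them for Psmg3 (-0.55), Psmb8 (-3.60) and Psmb9 (-3.54). Replicate 4 was below the others for Uba6 (-1.001).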

How the results depend on the processing

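Over 17 alternatives, the count of called member probes (15) lay within 1.5 times in all but array weights (35, among 17949 of all probes) and the leaving out of arrays, where it ran from 2 to 30, with 1 to 9 of 16 core and 0 to 18 of 24 regulatory probes. Without replicate 2 or 3 limma called 0 regulatory probes, with 6 and 4 at an unadjusted p under 0.05. The count over all probes was 7919 to 15742 with an array left out. Array weights called 11 core and 21 regulatory probes. A normexp offset of 10, the scanner software's ratios and the series table each called 3 core probes. The counts over all probes under these settings are not given here, so a change in the core cannot be told from one in all probes. Median centring called 5 regulatory probes and 6546 of all probes (2624 higher and 3922 lower, against 6207 and 5447), gave medians of -0.60 in the core and -0.65 in the regulatory particle, and turned Psmb1 to -0.057. With 1 probe per gene 6642 genes were called, since fewer were tested. With the dye labels turned, the medians were 0.11 and 0.22 and their difference -0.11; single probes then only change sign and were not listed. Without the replicate block, with channels as unpaired samples, 12 member and 10252 of all probes were called, and the medians stayed at -0.11 and -0.22. The causes were not tested. Of the 45 probes, 14 changed sign with median centring, and Psmb1 was the only one of these called in either fit.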

Other observations

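Some genes of the ubiquitin pathway had probes called in opposite directions. For Adrm1, a ubiquitin receptor of the proteasome base, the brightest probe had log2 ratios of RapCA over vector of -0.73, -0.42, -0.46 and -0.32 and was lower at -0.48 ± 0.17 (SD, n = 4; limma adjusted p = 0.00876). The other Adrm1 probe had 0.18, 0.53, 0.66 and 0.62 and was higher at 0.50 ± 0.22 (limma adjusted p = 0.0106). For Ubqln1, 1 probe was lower at -0.58 ± 0.26 (limma adjusted p = 0.00728), 1 was higher at 0.80 ± 0.27 (limma adjusted p = 0.00192) and the remaining one stood at -0.060 ± 0.22 without a call. No member of the constitutive proteasome had probes called in opposite directions.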
